A study of Homo sapiens with 2 samples.

Results

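The exons described here lost every read after BS008 treatment. They were chosen by their counts, as the exon entries with at least 10 reads in the control library and 0 reads in the BS008 library, and they numbered 210 of the 239322 entries listed. Huh-7 cells, a human hepatocellular carcinoma line at passages 15 to 20, received either 0.1% DMSO (control) or 0.1 mM BS008, a derivative of the potassium-sparing diuretic amiloride, for 24 h. Each condition was sequenced as 1 library, so no difference below has a replicate check, and differences between the conditions cannot be told apart from differences between these libraries. The study used these libraries to look for changes in alternative splicing. The control library held 55476654 reads on exons and the BS008 library 53578432. The files name 0 genes, and each exon is identified by its hg19 coordinates and strand.

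As background, most human genes are transcribed as a precursor RNA from which introns are removed and exons are joined. An exon of the mature RNA can be left out (exon skipping), and a first or last exon can be replaced when another promoter or another polyadenylation site is used. When the RNA of the whole gene falls, all of its exons lose reads together. An exon without reads therefore has a different meaning depending on whether the exons beside it still carry reads, and the comparison with neighbouring exons on the same strand addresses this question. Fewer RNA copies in each cell and fewer cells that make the RNA cannot be told apart in such bulk RNA.

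Reads were lower on the surrounding exons as well for a large part of these exons, in a number that depended on the setting. Among the 172 silenced exons whose neighbours within 10 kb on the same strand held at least 10 control reads, the neighbours' summed share of the library was lower by 2-fold or more, or lost, for 83 (48.3%) with the planned pseudocount of 0.5 CPM (counts scaled to the library total), compared with 6.41% of all exons judged in the same way. Without a pseudocount, a setting added after the data had been seen, it was lower by 2-fold or more for 118 (68.6%), compared with 8.59% of all exons. In that setting the neighbours' share was not lower for 12 of the 172 (6.98%), compared with 43.1% of all exons. Few silenced exons lay between adjacent exons that both kept their reads by the criterion given below. Among the 138 with a neighbour on both sides, there were 5 (3.62%), compared with 77.0% of all such exons and 32.8% of those with 10 to 14 control reads. Without a pseudocount there were 3 (2.17%), compared with 71.4% and 31.3%. Adjacent exons with fewer than 10 reads in either library count as not kept, and exons with neighbours on 1 side only were not judged. The values of these groups follow, after the abundance, the length and the position of the exons.

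The silenced exons were weakly expressed in control cells. A BS008 count of 0 is reached more easily from few reads, so the choice of exons favours such low counts. Their control count had a median of 12 reads, with quartiles of 10 and 17 and a highest value of 116. Their control RPKM (reads scaled to exon length and library size) had a median of 1.49 and ranged from 0.0272 to 44.6. The median RPKM of all 124269 exons with at least 10 control reads was 10.6. Together the 210 exons held 3437 control reads, or 0.0062% of that library, where a read on overlapping entries can be counted more than once. A count of 0 in BS008-treated cells allows up to 3 reads. With the control count taken as exact, this gives a lower bound of the decrease for each exon. The bound was 3.22-fold at the lowest count and 37.3-fold at the highest, with a median of 3.86-fold. It leaves out the counting error of the control reads and the selection of exons at 10 or more of them, so the true decrease can be smaller. These decreases follow from the way the exons were chosen and are given as a description.

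The 210 exons made up 0.169% of the exons with at least 10 control reads. In the opposite direction, 524 exons had 0 reads in control cells and at least 10 in BS008-treated cells, or 0.417% of the 125597 exons with at least 10 BS008 reads. The share that was silenced fell steeply with the control count, a fall that the choice of exons at 0 BS008 reads itself favours. It was 1.68% (133 of 7908; 95% Wilson confidence interval 1.42 to 1.99%) among exons with 10 to 14 control reads and 0.659% (40 of 6067; 0.485 to 0.897%) among those with 15 to 19. It was 0.136% (34 of 24943; 0.0976 to 0.190%) at 20 to 49 reads and 0.0035% (3 of 85351; 0.0012 to 0.0103%) at 50 or more. These intervals cover the counting of exons only. Neither threshold marked a break in the counts. At the control threshold, 54 of 1814 exons with exactly 10 control reads were at 0 in BS008-treated cells, and 58 of 1827 exons with 9 control reads were also at 0 but were not included. At the BS008 threshold, 252 exons with at least 10 control reads kept 1 read and 376 kept 2 reads.

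**Figure D1:**
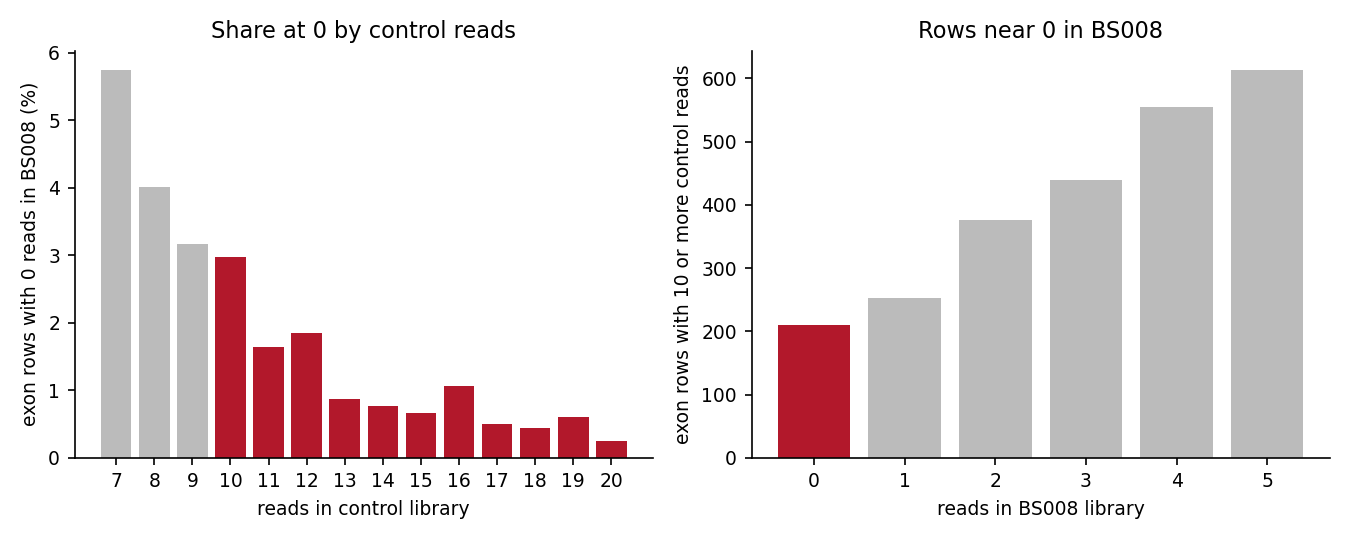
Left, the percentage of exons with 0 reads in the BS008 library (y axis) for each number of control reads from 7 to 20 (x axis), and right, the number of exons with at least 10 control reads (y axis) that had 0 to 5 reads in the BS008 library (x axis), with silenced exons in red and exons outside the definition in grey. The share at 0 fell from 5.74% at 7 control reads to 0.253% at 20, and the number of exons rose from 210 at 0 BS008 reads to 613 at 5, without a break at either threshold.

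Silenced exons were more often very short or very long than other exons. Their median length of 130 bases was close to that of all exons with at least 10 control reads (145 bases), but the upper quartile was 557 bases instead of 244, and the lower quartile was 84 instead of 100. Exons of at most 50 bases made up 11.4% of the silenced exons (24 of 210) and 2.86% of all exons. Exons longer than 1000 bases made up 15.2% (32 of 210) and 9.70%, respectively. The range in between was depleted, since 27.1% of the silenced exons and 43.8% of all exons had more than 100 and up to 200 bases, the size of a typical internal exon. The excess of short exons was not compared at matched counts, and short exons collect fewer reads. The excess of long exons was also present at matched counts. With 10 to 14 control reads, 21.1% of the silenced exons and 11.1% of all exons had at least 500 bases, and with 20 to 49 reads the shares were 38.2% and 9.32%. Exons that appeared only in BS008-treated cells shared the excess above 1000 bases (16.8%), whereas 4.01% of them had at most 50 bases. The shortest silenced exon had 9 bases and the longest 7944.

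**Figure D2:**
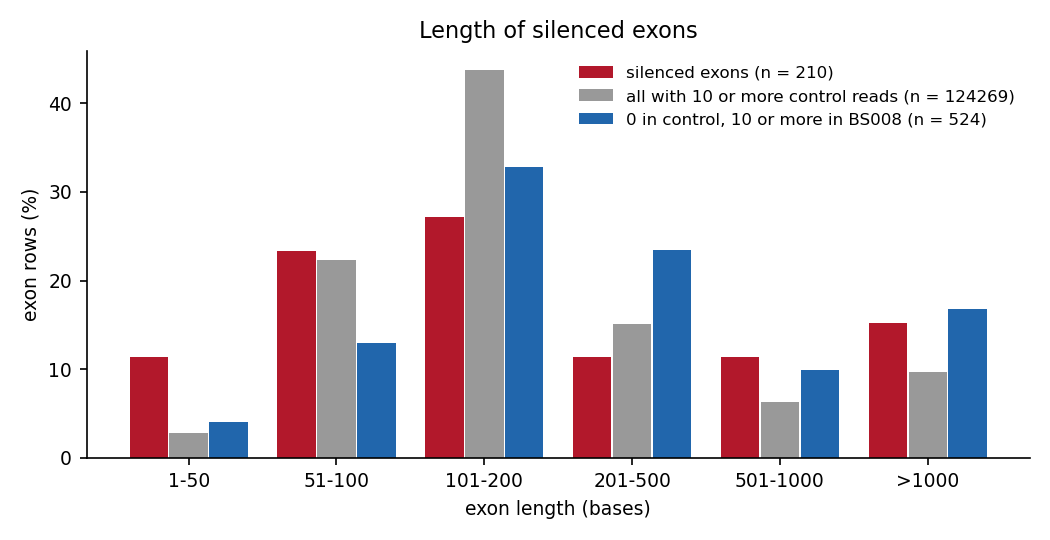
Percentage of exons (y axis) in 6 classes of exon length in bases (x axis) for the 210 silenced exons (red), all 124269 exons with at least 10 control reads (grey) and the 524 exons with reads only in BS008-treated cells (blue). The red bars exceed the grey bars at 1 to 50 bases (11.4% against 2.86%) and above 500 bases, and are lower between 100 and 200 bases (27.1% against 43.8%).

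The position of each exon was read from the listed exons within 10 kb on the same strand. An exon with neighbours on both sides was called internal, one without a neighbour upstream first, one without a neighbour downstream last, and one without any neighbour lone. These terms describe the 10 kb window, not a transcript. Of the silenced exons, 138 (65.7%) were internal, 30 (14.3%) first, 30 (14.3%) last and 12 (5.71%) lone. All exons with at least 10 control reads were internal in 74.5%, first in 9.50%, last in 11.5% and lone in 4.45%. Weakly expressed exons in general lay closer to the silenced exons in this respect, as exons with 10 to 14 control reads were internal in 68.4%, first in 13.9%, last in 10.6% and lone in 7.09%. The last exons were long, with a median of 1010 bases. The median was 711 bases for all last exons with at least 10 control reads and 256 bases for those with 10 to 14. Last exons with reads only in BS008-treated cells were similarly long, with a median of 1114 bases. Among internal exons of at most 300 bases, a length divisible by 3, which keeps the reading frame when a coding exon is skipped, was found in 40 of 105 silenced exons (38.1%) and in 38.6% of all such exons. Among those with expressed neighbours, defined below, it was found in 15 of 52 (28.8%). Silenced exons therefore showed no excess of lengths divisible by 3.

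The neighbours' reads within 10 kb were then summed and placed in 5 classes. With a pseudocount of 0.5 CPM added to both libraries, 11 silenced exons (5.24%) had neighbours that were also lost, with at least 10 control reads and 0 BS008 reads. A further 72 (34.3%) had neighbours that were at least 2-fold lower, and 89 (42.4%; 95% Wilson confidence interval 35.9 to 49.1%) had neighbours that were still expressed, which here includes decreases of less than 2-fold. The neighbours of 26 exons (12.4%) held fewer than 10 control reads, and 12 exons (5.71%) had no neighbour. Of all exons with at least 10 control reads, 0.0306% had neighbours that were also lost, 5.97% lower neighbours, 87.5% neighbours that were still expressed, 2.01% neighbours with few reads, and 4.45% no neighbour. All exons with 10 to 14 control reads, whatever their BS008 count, had neighbours still expressed in 81.8% and lower in 3.77%, and silenced exons with 10 to 14 control reads had them in 51.1% and 27.1%. At 20 to 49 control reads, the neighbours of silenced exons were lower in 55.9%, and those of all exons in 5.42%. The exons with reads only in BS008-treated cells, classified with the libraries exchanged, had 200 of 524 (38.2%) in the lower class and 171 (32.6%) in the still expressed class, so the lower class was the larger one there.

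The pseudocount bears on these classes. It equals 27.7 control reads, so that neighbours with small sums appear less changed than they were. Without a pseudocount, 35 of the 89 exons in the still expressed class had neighbours at least 2-fold lower, 42 had neighbours lower by less than 2-fold, and 12 had neighbours that were not lower. With a pseudocount of 0.1 CPM, 62 exons were in the still expressed class and 110 had neighbours that were lower or also lost, compared with 89 and 83 at 0.5 CPM. The median of the neighbours' summed reads in the still expressed class went from 124 in control cells to 81 in BS008-treated cells, and in the lower class from 172 to 34.5. Read in the other direction, the share of exons that was silenced differed with the fate of the neighbours, among which other silenced exons were counted. It was 0.0818% of the exons with still expressed neighbours, 0.971% of those with lower neighbours and 28.9% (11 of 38) of those whose neighbours were also lost. Removing other silenced exons from the neighbours left 93 exons in the still expressed class, 68 in the lower class and 9 in the class also lost. Of all exons with at least 10 control reads, 108810, 7391 and 21 were then in these classes.

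**Figure D3:**
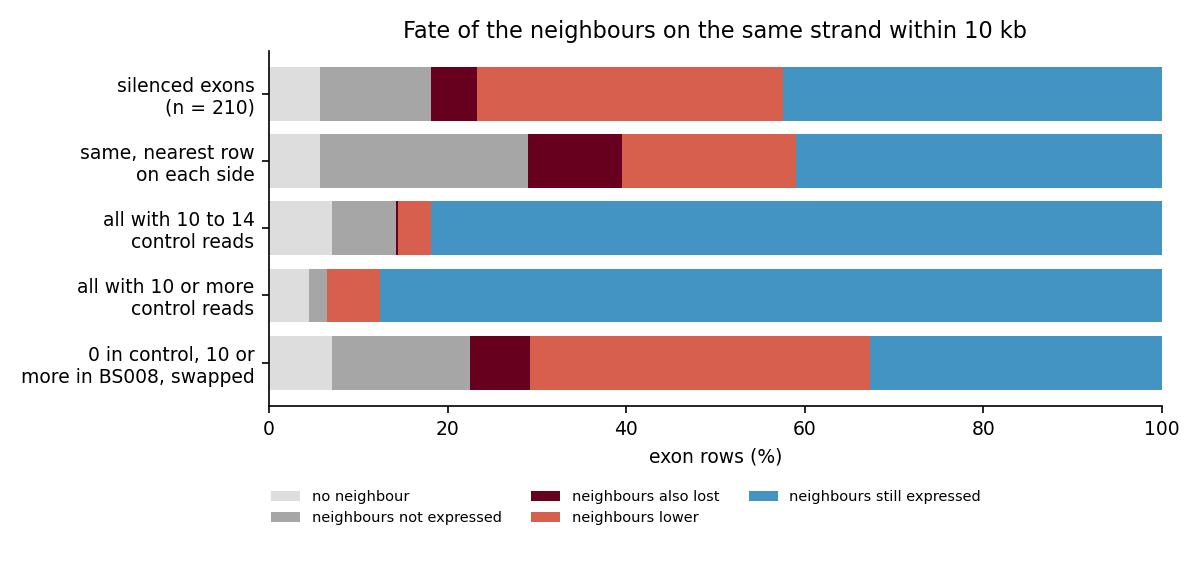
Percentage of exons (x axis) in each class of neighbour fate for, from top to bottom, the 210 silenced exons, the same exons judged by the nearest exon on each side, all exons with 10 to 14 control reads, all exons with at least 10 control reads, and the 524 exons with reads only in BS008-treated cells with the libraries exchanged. The still expressed class (blue) holds 42.4% of the silenced exons, 81.8% of the exons with 10 to 14 control reads and 87.5% of all exons.

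**Figure D4:**
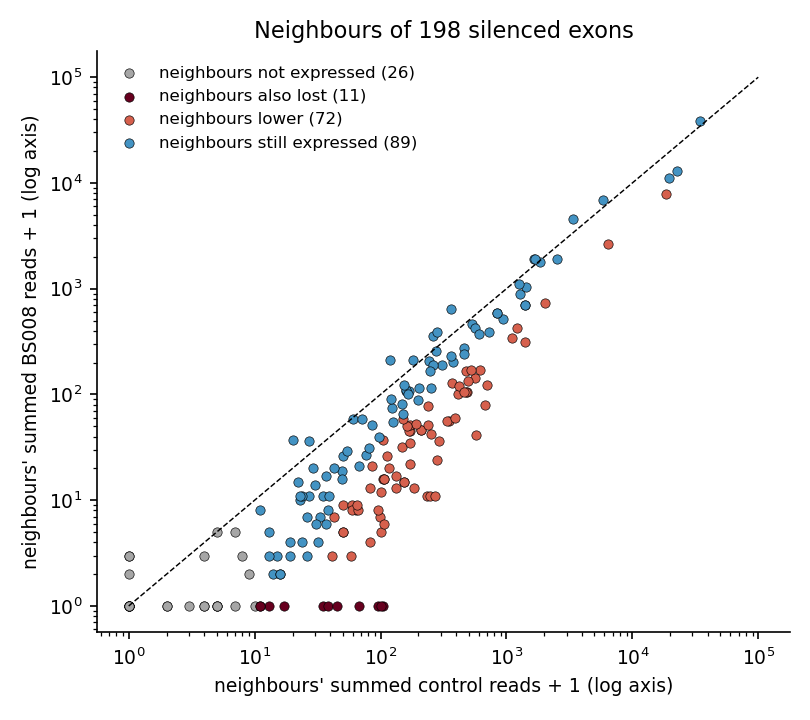
Summed reads of the same-strand neighbours within 10 kb plus 1 in control cells (x axis, log scale) and in BS008-treated cells (y axis, log scale), for the 198 silenced exons with a neighbour, coloured by class (number of exons in the legend). The dashed line marks equal reads, and most points lie below it, with medians of 124 and 81 reads in the still expressed class and 172 and 34.5 in the lower class.

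The class with weakly expressed neighbours differed from the others in length and position. Its 26 exons had a median length of 972 bases, 18 of them had at least 500 bases, and 20 were the last exon within their window. The exons with lower neighbours and those with still expressed neighbours had median lengths of 116 and 110 bases, and 62 of 72 and 65 of 89 of them were internal. Per length, the control level of the silenced exons, which the minimum of 10 control reads bounds from below, had a median of 1.21 times that of their neighbours, and 79 of 187 lay below their neighbours. The median was 2.23 in the class with weakly expressed neighbours, where fewer than 10 neighbour control reads beside at least 10 on the exon favour high values. Exons whose neighbours held no control reads have no such level and are left out. The median over all exons with at least 10 control reads was 1.19, and over those with 10 to 14 it was 0.901. Levels under 0.1 times those of the neighbours were found in 15 of 187 silenced exons (8.02%) and in 7.03% of the exons with 10 to 14 control reads.

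The exon with the most control reads was chr1:203044705-203047863 on the plus strand, with 3159 bases. It held 116 control reads and 0 BS008 reads, a decrease of at least 37.3-fold with the control count taken as exact. It was the last exon of a stretch of 17 listed exons over 27.6 kb, of which 3 were silenced with 12, 13 and 116 control reads. The other 14 exons of the stretch held 57 control reads and 2 BS008 reads, and none of them reached 10 control reads. Reads were thus low along the whole stretch in BS008-treated cells, and only the longest exon had held many in control cells.

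On the plus strand of chromosome 19, the silenced exons formed a stretch in which no exon kept a read. Within chr19:35611982-35615227, silenced exons of 33, 439, 38 and 883 bases held 10, 18, 13 and 47 control reads. The remaining 6 exons within 10 kb of them held 0 to 9 control reads, and all 10 together went from 113 reads to 0. Another silenced exon, chr19:35632036-35632168, with 11 control reads, lay about 17 kb downstream. When the window was widened to 100 kb, the neighbours of these 4 exons included strongly expressed exons, and the ratio of their sums turned from lower to higher (log2 ratios of 0.41 to 0.43).

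Chromosome 2 held a stretch in which the loss had a visible end. Within chr2:87407211-87412741 on the plus strand, exons of 19, 78, 68 and 87 bases held 47, 56, 70 and 29 control reads and 0 BS008 reads. The exon of 19 bases had the highest control RPKM of all silenced exons (44.6). The exon of 139 bases that lies before the last of them went from 94 reads to 3. Downstream of the stretch, the next exons went from 63 to 21, from 171 to 80, and from 112 to 67 reads, so the ratio of BS008 to control reads rose with distance from the silenced exons. Exons of the same lengths in the same order were listed a second time elsewhere in the genome for 3 of the 4 silenced exons. These second entries went from 91 to 77, from 51 to 65 and from 176 to 158 reads. Sequence similarity of the entries was not tested here, and where entries are near-identical copies the placement of reads between them is uncertain.

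The minus strand of chromosome 4 held the longest stretch. Over 55.9 kb at chr4:89653153-89709083, 5 silenced exons held 16, 12, 29, 12 and 11 control reads. The 8 other exons in between went from 114 reads to 5, with between 0 and 2 BS008 reads on each. Of the 14 silenced exons on chromosome 4, 13 were on the minus strand, including the 5 of this stretch. On chromosome 10, all 6 silenced exons were on the plus strand. The strand share of all exons on these chromosomes is not given here, and a strand preference was not tested. On the minus strand of chromosome 6, 3 silenced exons within chr6:24447066-24450127 held 10, 17 and 10 control reads, and another at chr6:24475349-24475459 held 18. The 10 exons between them went from 85 reads to 23, so reads remained inside this stretch.

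Pairs of silenced exons differed in how far the decrease reached. On the plus strand of chromosome 8, the exons at chr8:145468400-145468495 and chr8:145469112-145469216 held 37 and 45 control reads. The exons directly before and after the pair went from 59 to 2 and from 85 to 4 reads, and exons 4.83 kb before and 5.77 kb after the first of the pair went from 7 to 14 and from 31 to 25. The lengths of this pair were also listed a second time, and these second entries had exactly the same control counts of 37 and 45 and BS008 counts of 24 and 16. How reads were assigned between such entries was not tested. Another pair, chr6:131894365-131894479 and chr6:131897803-131897875, held 35 control reads on each exon, and the 6 exons that follow went from 26 to 188 control reads to 4 to 9 BS008 reads. At chr12:54688919-54689544 and chr12:54694585-54694791, 47 and 19 control reads were lost, and the 2 other exons within 10 kb went from 223 to 10 and from 2 to 0. At chr1:204429678-204429789 and chr1:204433140-204433260, 16 and 27 control reads were lost, and the exons on the outer sides went from 20 to 4 and from 42 to 2.

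**Figure D5:**
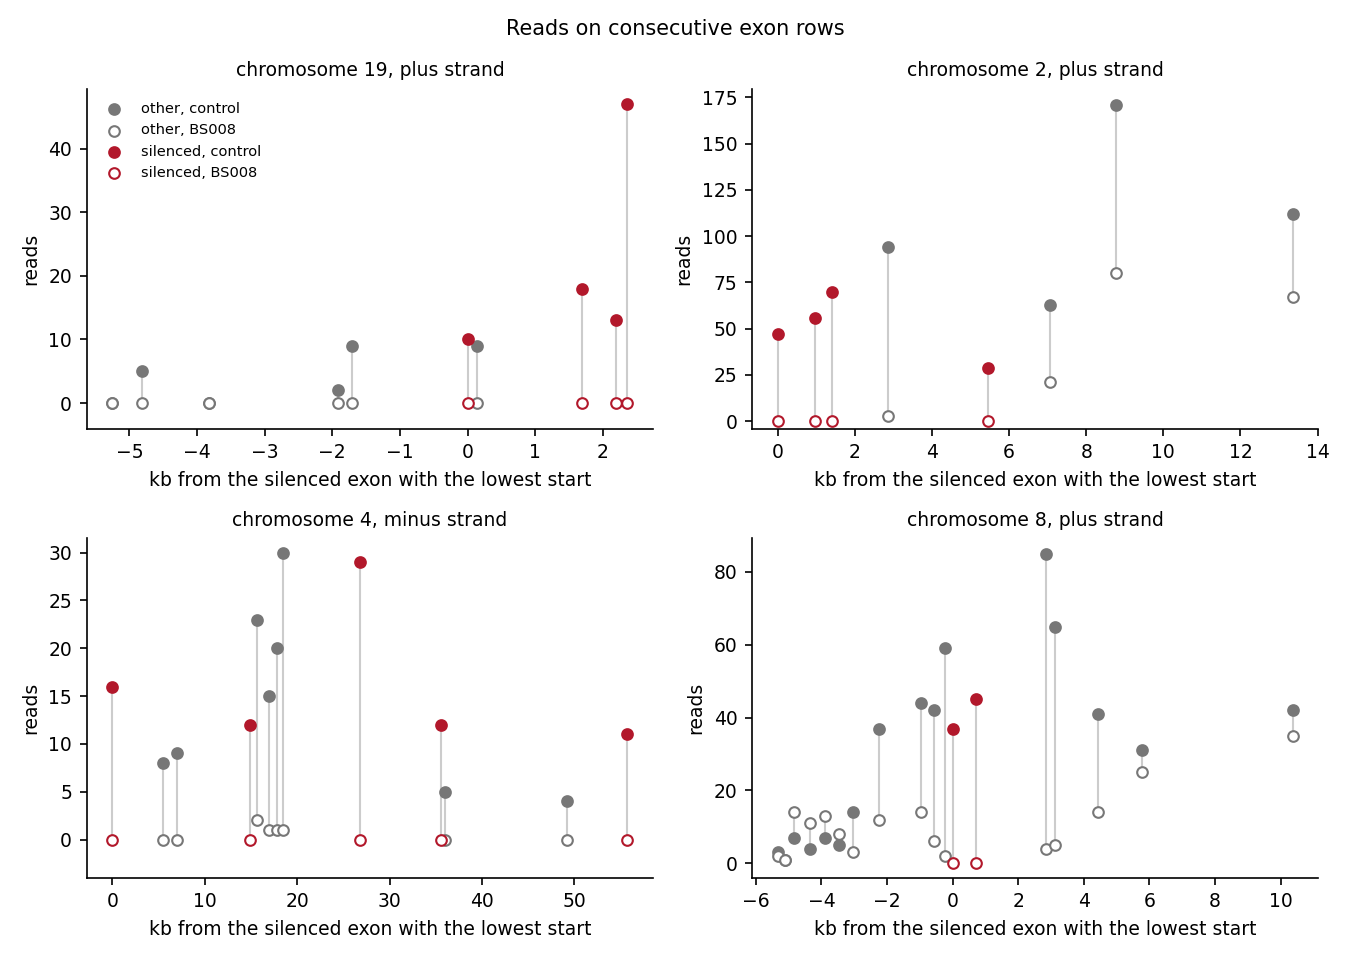
Reads per exon (y axis) against the distance in kilobases from the silenced exon with the lowest start (x axis) in 4 stretches, with filled circles for control cells, open circles for BS008-treated cells, silenced exons in red, other exons in grey and a line joining the counts of an exon. On chromosome 19 no exon kept a read, on chromosomes 2 and 8 the exons farther from the silenced ones kept reads (112 to 67 reads and 42 to 35 reads at the right edge), and on chromosome 4 the other exons kept at most 2 reads.

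Among the other exons with the most control reads, a pair from different chromosomes had adjacent exons with far fewer reads in BS008-treated cells. The exon chr1:15444823-15445400 on the minus strand, with 578 bases, held 39 control reads, and the next exon downstream went from 230 to 39 reads. The exon chr19:5838688-5839742 on the minus strand, with 1055 bases, also held 39 control reads, and the adjacent exons went from 130 to 23 and from 7 to 0 reads.

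Over all chromosomes, 51 of the 210 silenced exons (24.3%) lay within 10 kb of another one on the same strand, in 20 pairs, 1 group of 3 and 2 groups of 4, and 159 were alone. In 36 exons the adjacent listed exon was silenced as well. With a distance of 100 kb, 67 exons were grouped, and 5 groups had 3 or more. No share over other exons is given for these groups, so whether such grouping is unusual was not tested. Silenced exons were found on 22 chromosomes. The largest numbers were on chromosomes 1 (24), 19 (16) and 6 (15), and the shares of exons with at least 10 control reads were highest on chromosomes 4 (0.322%), 9 (0.267%) and 6 (0.249%). None of the 2343 such exons on chromosome 13 was silenced. Plus-strand exons made up 47.6% of the silenced exons and 50.5% of all exons.

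The 10 silenced exons for which the neighbours gave the highest predicted BS008 count were then examined. Of these 10, 1 had adjacent exons that were both kept by the criterion given below. The prediction multiplies the control count by the ratio of the neighbours' summed reads. That control count and the 0 in BS008-treated cells were both bounded by the choice of exons, so the numbers of predictions are a description. Their share over other exons is not given here. Over all silenced exons, the prediction exceeded 3 reads, the number that a count of 0 allows, for 105 exons when neighbours within 10 kb were used, for 66 when the nearest exon on each side was used, and for 63 by both. It exceeded 10 reads for 13 by both. The highest prediction was 72 reads for chr17:1922479-1923997 on the plus strand, with 1519 bases and 38 control reads. It rested on 1 exon, which lay downstream and went from 19 to 36 reads, while the exon upstream had 0 reads in both libraries. The prediction of 39.0 reads for chr9:684194-684574 on the plus strand, with 381 bases and 29 control reads, rested on adjacent exons that went from 21 to 30 and from 5 to 5 reads. At chr7:144063448-144063505, with 58 bases, 18 control reads and a prediction of 20.6, the exon upstream went from 1166 to 1208 reads, the exon downstream was itself silenced with 10 control reads, and the exon after that went from 90 to 46. This was the only place among the 10 where expressed exons enclosed a silenced pair.

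Other predictions came from exons farther away than the adjacent ones. For chr11:116662528-116662612 on the minus strand, with 85 bases and 33 control reads, the neighbours within 10 kb rose from 3380 to 4575 reads and predicted 44.7 reads. The adjacent exons, however, went from 643 to 21 and from 7 to 0 reads and predicted 1.07. For chr7:134261715-134261798, with 20 control reads and a prediction of 19 reads, the adjacent exons went from 3 to 0 and from 10 to 0. For chr9:139924626-139926177, with 19 control reads and a prediction of 17.96, they went from 1 to 0 and stayed at 0. For chr15:83012900-83012960, with 11 control reads and a prediction of 19.4, they went from 12 to 4 and from 2 to 1, which predicted 3.93. For chr1:145336281-145336332, with 10 control reads and a prediction of 17.7, they went from 18 to 7 and from 44 to 42, which predicted 7.90. A window of 10 kb therefore mixed exons with different changes, and 68 of the 89 exons in the still expressed class remained in it when only the nearest exon on each side was used. Of the others, 15 had nearest exons with fewer than 10 control reads, 4 had lower and 2 also lost nearest exons.

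Both adjacent exons kept their reads in 5 of the 138 silenced exons with a neighbour on either side (3.62%), meaning that each had at least 10 reads in both libraries and was less than 2-fold lower with the pseudocount. The same held for 77.0% of all exons with neighbours on both sides and for 32.8% of those with 10 to 14 control reads. In 21 silenced exons 1 adjacent exon was kept, and in 112 neither. Among the 5411 exons with 10 to 14 control reads and neighbours on both sides, the numbers were 2144 and 1494, and among all 92587 such exons 15612 and 5679. Adjacent exons with fewer than 10 reads in either library count as not kept, whether or not they fell. Without a pseudocount both adjacent exons were kept in 3 silenced exons (2.17%), compared with 71.4% of all exons and 31.3% of those with 10 to 14 control reads. This criterion was chosen after the data had been seen. At chr3:125033781-125033897 on the minus strand, an exon of 117 bases with 15 control reads lay between exons that went from 121 to 53 and from 124 to 112 reads. The first of these was more than 2-fold lower before the pseudocount was added. At chr11:118896402-118896467 on the minus strand, an exon of 66 bases held 11 control reads, and the adjacent exons went from 158 to 98 and from 167 to 102 reads. In control cells the RPKM of this exon was 3.004, and that of the adjacent exons was 24.98 and 21.66, so the silenced exon was the weaker one. At chr16:30771927-30771989 on the minus strand, an exon of 63 bases held 10 control reads, and the adjacent exons went from 60 to 31 and from 25 to 28 reads.

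The other two of these 5 exons lay in runs of exon lengths that are listed more than once. At chr5:69741310-69741349 on the plus strand, an exon of 40 bases held 38 control reads, and the adjacent exons went from 51 to 15 and from 164 to 73 reads. Both adjacent decreases exceeded 2-fold before the pseudocount was added. Its 2 other entries together went from 40 to 72 reads, so that all 3 entries held 78 control reads and 72 BS008 reads. At chr1:144220128-144220179 on the plus strand, an exon of 52 bases held 14 control reads, the adjacent exons went from 33 to 18 and from 30 to 44 reads, and the 60 other entries went from 295 to 622. Of the 5 exons, 3 had a length divisible by 3 and 4 had at most 100 bases.

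Repeated entries were found beyond these cases. A run of 4 consecutive exon lengths that is listed more than once contained 30 silenced exons (14.3%), compared with 11.3% of all exons with at least 10 control reads. The other entries held BS008 reads for 28 of the 30, and for 13 they held more BS008 than control reads. When all entries of an exon were summed, the log2 ratio had a median of -0.37, and it was at or above 0 for 10 exons and at or below -1 for 3. The same numbers over other exons in such runs are not given here. The exons chr1:144220128-144220179 and chr1:145336281-145336332 had the same sums over all entries, 309 control and 622 BS008 reads, so 1 set of entries can be counted for both. Equal lengths do not prove that entries are copies, and whether reads were moved between copies was not tested. For chr7:134261715-134261798 the other entry went from 290 to 551 reads. For chr19:1056329-1056498 and chr19:1058145-1058268, with 10 control reads each, the other entries fell as well, from 149 to 32 and from 85 to 5.

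Overlapping entries involved 12 silenced exons (5.71%, compared with 3.69% of all exons), 2 on the same strand and 10 on opposite strands. Of these, 7 overlapped another silenced exon. The number of silenced exons and their summed reads can therefore count the same reads more than once. The counts did not separate the strands, since the 5 pairs of entries with reads and identical coordinates on both strands had equal counts in both libraries. On chromosome 9, the minus-strand exon chr9:35673808-35675863 (31 control reads) overlapped the plus-strand exons chr9:35673710-35674359 (20) and chr9:35675758-35675928 (13), and all 3 were at 0. The 10 same-strand neighbours of each of these plus-strand exons were at 0 in BS008-treated cells as well, whereas the minus-strand neighbours went from 599 to 370 reads. The class of this minus-strand exon (still expressed) thus depended on the strand to which its reads were assigned, which was not tested. On chromosome 14, chr14:58740654-58740728 and chr14:58740697-58740728 share their end and held 14 control reads each, and they were counted above as a pair of silenced exons. Both lie inside the longer entry chr14:58739123-58740853, which went from 176 to 95 reads, so that reads were kept on the longer exon but on neither of the short ones.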

How the data were processed

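RNA of Huh-7 cells was prepared with an Illumina mRNA-seq kit and sequenced as 1 library for each condition, with groups taken from the treatment label of each sample. For each of 239322 exon entries, the authors deposited the raw count of reads and an RPKM value scaled to the entry's length and the library total, which could be rebuilt from the count with a difference of at most 4.7e-06. The genome build was hg19 per the submitters' processing notes. The aligner, the counting tool and the annotation are not given in the sources used here. The reference at hand was on GRCh38, so no exon was assigned to a gene, no sequence was read, no coordinates were converted, and planned gene and marker lists were not used, so the labelled cell type was not checked against its markers. The strand setting of the counts was not stated.

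Silenced exons, neighbours, positions and clusters were computed from the counts with Python 3.11.15, pandas 2.3.3, numpy 2.4.6 and scipy 1.17.1, after the steps had been checked on simulated data. Neighbours were all other entries on the same strand with a gap of at most 10 kb and no overlap. Ratios were scaled to the library totals of 55476654 and 53578432 reads, with a pseudocount of 0.5 CPM unless stated. Without a second library of either condition the spread is unknown, and no test was run. Where 3 reads are taken as the limit of a count of 0, this limit is 0.0541 CPM in control cells and 0.0560 CPM in BS008-treated cells. It covers the counting error of the 0 only, and not that of the control count. The exons named are the 10 with the most control reads, the 10 with the highest count predicted from still expressed neighbours and the groups of 3 or more. The pairs, the exons with kept adjacent exons and those with repeated or overlapping entries were named after their values had been seen. The members and lists were chosen with earlier results of these data known. Scaling by TMM (edgeR 4.0.16) and by DESeq2 1.42.0 size factors in R 4.3.3 were alternatives.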

Additional observations from a re-analysis of the deposited data

How the results depend on the processing

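No paired analysis was possible because each condition had 1 library, and for the same reason no replicate could be left out. The number of silenced exons followed the thresholds, with 935 at a control minimum of 5 reads, 37 at 20 reads, 3 at 50 reads, 8272 without a minimum, and 462 when 1 BS008 read was allowed. The share in the still expressed class was 27.0% at a minimum of 20 reads, 18.1% within 1 kb, 71.4% within 100 kb, 29.5% with a pseudocount of 0.1, 25.7% without a pseudocount (chosen after seeing the data) and 26.7% when a 1.5-fold decrease counted as lower. The share with lower or lost neighbours was 39.5% as reported, and became 64.9% at a minimum of 20 reads, 19.05% within 1 kb, 21.9% within 100 kb, 30.0% with the nearest exons, 52.4% with a pseudocount of 0.1, 32.9% with a pseudocount of 1, 56.2% without one and 55.2% at 1.5-fold. The same share over all exons with 10 or more control reads was 2.81% within 1 kb, 4.33% within 100 kb and 17.7% at 1.5-fold, below that of the silenced exons in each case. The share in the still expressed class over all these exons was 50.45% within 1 kb, 95.08% within 100 kb and 75.89% at 1.5-fold. Internal exons made up 20.0% of the silenced exons within 1 kb and 90.5% within 100 kb. Over all exons with 10 or more control reads, these shares were 20.32% and 93.87%, so the lower share of internal exons seen at 10 kb was nearly absent at 1 kb. Grouped exons made up 34.4% of the silenced exons when 1 BS008 read was allowed, 12.4% at a distance of 1 kb and 31.9% at 100 kb. TMM and DESeq2 size factors each gave 43.3% in the still expressed class. Within 100 kb, the neighbours' log2 ratio turned from lower to higher for the 4 grouped exons on chromosome 19 (0.43, 0.41, 0.41 and 0.41) and for the chromosome 8 exon with 45 control reads (0.11), where the wider window takes in more exons. The depth limits the exons near 10 control reads, where a decrease beyond 3.22-fold cannot be measured.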
